A study of Mus musculus with 2 samples.

Results

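Genes for 8 receptors that guide lymphocytes along lipid gradients were examined in diabetogenic CD4 T cells, chosen by symbol from the deposited gene table. They are the 5 sphingosine 1-phosphate (S1P) receptor genes S1pr1, S1pr2, S1pr3, S1pr4 and S1pr5, the lysophosphatidic acid (LPA) receptor genes Lpar3 and Lpar6, and the oxysterol receptor gene Gpr183. Each symbol had 1 row, so 8 of 54532 gene rows were taken. The 2 libraries, 1 per group, came from BDC-2.5 cells, which carry a transgenic T cell receptor against a beta cell antigen of the non-obese diabetic mouse. These cells were activated and given intravenously to NOD.scid mice, a strain without T or B cells of its own. The first group received 1.75 mg of 2.5HIP-PLG intravenously on day 1 after transfer, a nanoparticle of poly(lactide-co-glycolide) carrying a hybrid insulin peptide, and the second was Untreated. On day 6, spleens and lymph nodes of 4 mice in each group were pooled, and CD4-positive cells negative for the green Foxp3 reporter were collected by sorting. Sorted blood or pancreas cells were not analysed here, so the values are levels in cells that were in spleen and lymph nodes at that time.

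S1P is abundant in blood and lymph and scarce inside lymphoid tissue, and S1PR1 lets T cells follow that gradient out of lymph nodes and spleen. The transcription factor KLF2 drives the S1pr1 gene, while the activation marker CD69 binds the S1PR1 protein and removes it from the surface. S1PR5 serves the exit of natural killer cells and is made by terminal effector T cells, S1PR2 restrains migration and holds cells in follicles, S1PR4 is found on lymphocytes, and S1PR3 mainly on vessel and stromal cells. GPR183, also called EBI2, draws B cells, dendritic cells and activated CD4 T cells to the outer follicle and the border of the T zone, where its oxysterol ligand is made. LPA receptors answer LPA, which autotaxin makes at the vessels where lymphocytes enter lymph nodes.

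Total counts were 22580671 after 2.5HIP-PLG and 26036666 in Untreated. Counts were scaled by these totals to counts per 1e6 (CPM), so 1 count was worth 0.0443 CPM after 2.5HIP-PLG and 0.0384 CPM in Untreated. A gene at 0 counts could still have a level of 0.133 CPM after 2.5HIP-PLG or 0.115 CPM in Untreated. The T cell genes Cd4 (41743 counts after 2.5HIP-PLG and 39739 in Untreated) and Cd3e (23550 and 20110) were abundant, and Cd8a had 0 and 9 counts. Since each group is 1 library, differences are without a replicate check and carry no p-values. Ratios are 2.5HIP-PLG over Untreated, and their exact 95% intervals hold counting error alone. A call, higher or lower, needs a difference of 1.5-fold or more and an interval without 1. Foxp3, the gene of the reporter used for exclusion, had 1157 counts after 2.5HIP-PLG and 389 in Untreated, a ratio of 3.43 (3.05 to 3.86), and was called higher. In sorted pools like these, fewer cells that use a gene and less RNA per cell cannot be told apart.

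S1pr5 and Gpr183 were lower in the 2.5HIP-PLG library, Lpar3 was higher on few reads, and the other 5 receptor genes were not called. S1pr5 was 3.95-fold lower (3.63 to 4.31) and Gpr183 2.59-fold lower (2.19 to 3.09). S1pr1, the main exit receptor of T cells, was nearly level, with a ratio of 0.955 (0.924 to 0.987). Among 13902 measured genes, those whose counts summed to at least 20 over both libraries, 9.7% were called lower, 5.15% higher and 14.8% in either direction, against 2 lower and 1 higher of the 8 receptor genes. Among the 11805 protein-coding measured genes the shares were 7.89% lower and 5.12% higher. Among the 8328 of them with a count sum of 500 or more, as S1pr5 and Gpr183 have, the shares were 3.6% lower and 2.92% higher. Both protein-coding subsets were chosen after the data were seen. S1pr3 and Lpar3 do not reach 500 counts, so the second subset is no like background for all 8 genes. All 8 receptor genes passed the count minimum, but Lpar3 passed through its 2.5HIP-PLG counts alone, so its call is tied to the filter. Their median log2 ratio was -0.35, against -0.01 over all measured genes, where 0.5 counts were added to each count.

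**Figure D1:**
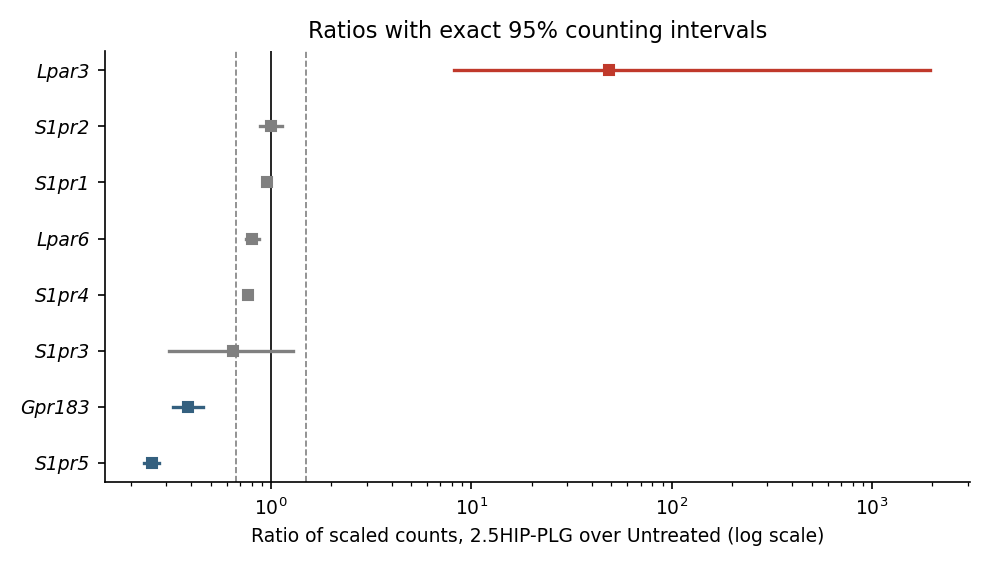
Ratio of scaled counts, 2.5HIP-PLG over Untreated, on a log axis for the 8 receptor genes, with exact 95% counting intervals as bars. Dashed lines mark a ratio of 1.5 and its inverse. Blue squares are called lower, the red square higher and grey squares neither, with S1pr5 at 0.253, Gpr183 at 0.386 and Lpar3 at 48.4.

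The windows around the annotated starts are shown for the 3 receptor genes that were called. RefSeq windows on GRCm38.p6, taken from 250 bases before to 50 bases after the start, were found for 7 of the 8 genes, and S1pr1 had no entry. Each is printed 5′ to 3′ on the gene's own strand. Capitals mark CACCC or its reverse complement GGGTG, the core bound by Kruppel-like factors such as KLF2. The S1pr5 window is chr9:21248394-21248693 on the minus strand, the Gpr183 window chr14:121965144-121965443 on the minus strand, and the Lpar3 window chr3:146220711-146221010 on the plus strand.
S1pr5: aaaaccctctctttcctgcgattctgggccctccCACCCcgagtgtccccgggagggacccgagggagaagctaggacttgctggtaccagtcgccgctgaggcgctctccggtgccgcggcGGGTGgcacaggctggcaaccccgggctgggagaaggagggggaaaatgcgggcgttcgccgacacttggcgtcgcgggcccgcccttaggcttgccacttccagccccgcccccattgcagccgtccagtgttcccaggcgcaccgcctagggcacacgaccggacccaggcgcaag
Gpr183: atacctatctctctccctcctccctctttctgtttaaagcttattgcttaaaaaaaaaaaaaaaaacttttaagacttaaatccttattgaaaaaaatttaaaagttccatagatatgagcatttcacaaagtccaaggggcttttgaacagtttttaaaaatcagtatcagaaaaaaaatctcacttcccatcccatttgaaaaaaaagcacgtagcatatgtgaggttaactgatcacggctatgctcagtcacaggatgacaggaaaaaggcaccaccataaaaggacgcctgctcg
Lpar3: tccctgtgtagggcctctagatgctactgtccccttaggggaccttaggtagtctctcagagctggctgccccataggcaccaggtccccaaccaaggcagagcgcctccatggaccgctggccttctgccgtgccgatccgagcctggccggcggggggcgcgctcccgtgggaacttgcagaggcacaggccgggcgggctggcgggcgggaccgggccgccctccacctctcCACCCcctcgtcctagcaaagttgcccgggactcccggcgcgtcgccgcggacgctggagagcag
The core occurred at 2 places in the S1pr5 window, with first bases 216 and 128 bases before the start, at 1 place in the Lpar3 window, 15 bases before the start, and at 0 places in the Gpr183 window. Of 32851 promoter windows of this length, 57.5% held it on either strand. Other motifs were also searched on both strands. The T-box motif TCACACC (in 3.98% of all windows), the FOXO motif GTAAACA (3.65%), the EGR motif GCGTGGG (5.04%) and the ZEB E-box CACCTG (20.2%) had 0 matches in the S1pr5, Gpr183 and Lpar3 windows. CACCTG occurred at 1 place each in the S1pr2 and S1pr4 windows. A match describes these letters of the reference genome and is no evidence of binding.

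S1pr5 had the largest shortfall among the receptor genes. It had 656 counts after 2.5HIP-PLG and 2990 in Untreated, or 29.1 CPM and 114.8 CPM. The ratio of 0.253 (0.232 to 0.275) ranked 211 from the bottom of the 13902 measured genes. The gene lies at chr9:21242912-21248443 on the minus strand of GRCm38, with 2500 bases of merged exon. Its start overlaps Gm48303, an unverified transcript on the other strand that shares 51 of those bases and had 1 count after 2.5HIP-PLG and 11 in Untreated. The nearest measured genes on either side were not called, with ratios of 0.9998 (0.952 to 1.05) for Keap1, the sensor of oxidative stress, and 0.916 (0.850 to 0.988) for the autophagy protease gene Atg4d. Because natural killer cells also use S1pr5, their markers are given beside it. All 7 markers on the list were measured, 2 higher, 2 lower and 3 neither. The median of their log2 ratios was -0.34. Their summed level was 52.4 CPM after 2.5HIP-PLG and 36.6 CPM in Untreated. Much of that sum was Eomes, also a T cell gene and called higher, with 735 counts after 2.5HIP-PLG and 360 in Untreated, and the other 6 markers summed to 19.9 CPM after 2.5HIP-PLG and 22.7 CPM in Untreated. Among these 6, Klre1 had 211 counts after 2.5HIP-PLG and 308 in Untreated and was neither. The receptor genes Ncr1 (54 counts after 2.5HIP-PLG and 96 in Untreated) and Klrb1c (21 and 52) were lower, and Klra8 (80 and 7) was higher. Tyrobp (45 and 75) and Cd244a (38 and 54) were neither. Klra8 was thus the only marker of these 6 with a ratio above 1. The expected counts of Klra8 were not whole in either library, and that of Klrb1c was not whole after 2.5HIP-PLG. The part of such cells in the S1pr5 difference was not tested.

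S1pr1 was abundant in both libraries. It had 6420 counts after 2.5HIP-PLG and 7750 in Untreated, or 284.3 CPM and 297.7 CPM, and it lies at chr3:115710433-115715072. Its ratio interval excluded 1 on the low side by a small margin, far inside the 1.5-fold limit. Among all measured protein-coding genes, 3 genes lay closest to it by Euclidean distance over log2 CPM in the 2 libraries. They were the tetraspanin gene Cd37 (distance 0.016), the chromatin remodeller gene Smarca4 (0.028) and H2-Q6 (0.029), a class Ib gene whose reads may be divided with near-identical relatives. With 2 libraries this likeness rests on 2 points.

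S1pr4 was lower by less than the limit for a call. It had 4996 counts after 2.5HIP-PLG and 7504 in Untreated, or 221.3 CPM and 288.2 CPM, a ratio of 0.768 (0.741 to 0.796). The gene consists of 1 exon at chr10:81497747-81500132. Downstream of it lies Ncln, with 2162 counts after 2.5HIP-PLG and 2845 in Untreated (0.876, 0.828 to 0.927). On the other side, 2.17 kb away, lies Gna15, which encodes a G protein alpha subunit of blood cells and was called lower, with 984 counts after 2.5HIP-PLG and 2177 in Untreated (0.521, 0.483 to 0.562).

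S1pr2 and S1pr3 were the scarcer S1P receptor genes. S1pr2, at chr9:20962361-20976781, had 436 counts after 2.5HIP-PLG and 504 in Untreated, 19.3 CPM and 19.4 CPM, a ratio of 0.997 (0.875 to 1.14). S1pr3, at chr13:51408639-51422797, had 14 and 25 counts in the same order (0.646, 0.310 to 1.29), so no difference was detectable at this depth. Endothelial cells also use S1pr1 and S1pr3. Of 10 endothelial markers 2 were measured and 1 of these was higher, with a summed level of 127.8 CPM after 2.5HIP-PLG and 99.9 CPM in Untreated. Pecam1, also a T cell gene, had 2850 counts after 2.5HIP-PLG and 2573 in Untreated. The vessel cadherin gene Cdh5 had 17 and 7 counts, and Emcn and Lyve1 had 0 in both libraries.

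The make-up of the S1P receptor family differed between the libraries. The 5 genes together held 554.5 CPM after 2.5HIP-PLG and 721.0 CPM in Untreated, a ratio of 0.769 (0.752 to 0.787), and without S1pr5 the other 4 held 525.5 and 606.2 CPM, a ratio of 0.867 (0.846 to 0.888). Per kilobase of merged exon, S1pr5 made up 5.80% of the family after 2.5HIP-PLG and 17.2% in Untreated. On the same scale S1pr1 made up 46.6% after 2.5HIP-PLG and 36.6% in Untreated, and S1pr4 46.3% and 45.2%. The share of S1pr5 was smaller after 2.5HIP-PLG and that of S1pr1 larger. The level of S1pr1 itself was not higher, with 93.3 CPM per kilobase after 2.5HIP-PLG and 97.7 in Untreated. Its larger share follows from the smaller family total. For every 100 counts of S1pr1 in its own library there were 10.2 counts of S1pr5 after 2.5HIP-PLG and 38.6 in Untreated. This quotient needs no scaling between libraries, and its ratio was 0.265 (exact conditional interval 0.242 to 0.290).

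**Figure D2:**
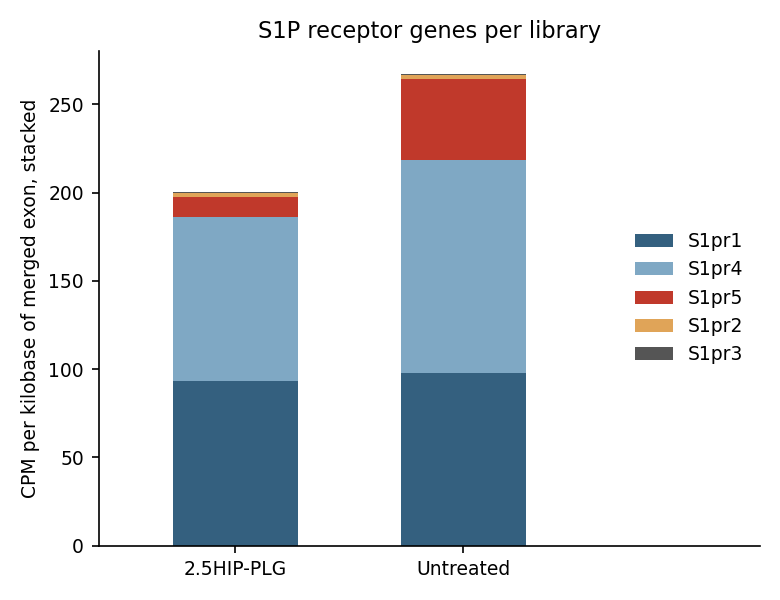
Level of the 5 S1P receptor genes in CPM per kilobase of merged exon, stacked for the 2.5HIP-PLG and the Untreated library. The red S1pr5 segment is 11.6 after 2.5HIP-PLG and 45.9 in Untreated, while the S1pr1 segments are 93.3 and 97.7.

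Gpr183 was the other receptor gene called lower. It had 180 counts after 2.5HIP-PLG and 538 in Untreated, or 7.97 CPM and 20.7 CPM, a ratio of 0.386 (0.324 to 0.458), rank 493 from the bottom of all measured genes. The gene lies at chr14:121952551-121965195 on the minus strand, wholly inside Ubac2 on the plus strand, and shares 0 exon bases with it. Ubac2, a ubiquitin-associated membrane protein gene, had 2731 counts after 2.5HIP-PLG and 2463 in Untreated (1.28, 1.21 to 1.35). Gpr18, a lipid-sensing receptor gene 36.8 kb away on the same strand as Gpr183, differed the other way, with 1434 counts after 2.5HIP-PLG and 693 in Untreated (2.39, 2.18 to 2.62). B cells and dendritic cells also use Gpr183. Of 7 B cell markers 3 were measured, 2 higher and 0 lower, with a summed level of 188.4 CPM after 2.5HIP-PLG and 117.4 CPM in Untreated. Ighm (3761 counts after 2.5HIP-PLG and 2641 in Untreated) and Cd22 (389 and 228) led that list. Much of the sum was Ighm, with 166.6 CPM after 2.5HIP-PLG and 101.4 CPM in Untreated. Blk (97 and 166 counts), Cd79b (5 and 12) and Pax5 (1 and 6) had fewer counts after 2.5HIP-PLG, and none of them was called. The defining markers Cd79a (2 and 3) and Ms4a1 (0 in both libraries) were at or near 0. Of 9 dendritic cell markers 6 were measured, 0 higher and 1 lower, with a summed level of 64.7 CPM after 2.5HIP-PLG and 89.99 CPM in Untreated. Cd74 (1042 and 1541 counts) and H2-Aa (173 and 264) had the most counts, the marker called lower was Itgax (108 and 320), and Clec9a had 0 and 1. The part of dendritic cells in the Gpr183 difference was not tested.

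Of the LPA receptor genes, Lpar3 was called higher on few counts and Lpar6 was not called. Lpar3 had 42 counts after 2.5HIP-PLG and 1 in Untreated, or 1.86 CPM and 0.0384 CPM, a ratio of 48.4 (8.23 to 1958). It reached the minimum of 20 summed counts through its 2.5HIP-PLG counts alone, so a gene this low in Untreated could be measured only if it differed. Its level stayed low, since 0.755 CPM per kilobase after 2.5HIP-PLG stood at percentile 16.02 of the measured protein-coding genes of that library. The gene, at chr3:146220963-146286186 on the plus strand, overlaps no other annotated gene, and its nearest measured neighbours Mcoln2 (216 counts after 2.5HIP-PLG and 217 in Untreated) and Ssx2ip (267 and 243) were not called. Lpar6 was far more abundant, with 1114 counts after 2.5HIP-PLG and 1593 in Untreated, 49.3 CPM and 61.2 CPM, and was not called (0.806, 0.746 to 0.871). It is a 1-exon gene at chr14:73237895-73243294 inside Rb1, the retinoblastoma gene on the other strand, and 408 of its 5400 bases are also exon of Rb1. Its Untreated count was not whole before rounding, which none of the other 7 receptor genes showed, and whether counting used strand is not given in the sources used here. Rb1 had 2494 counts after 2.5HIP-PLG and 2850 in Untreated (1.01, 0.956 to 1.07).

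Levels can be set in order per kilobase of merged exon. In the 2.5HIP-PLG library S1pr1 (93.3 CPM per kilobase) and S1pr4 (92.7) led with overlapping counting intervals, followed by S1pr5 (11.6) and Lpar6 (9.14). Gpr183 (2.76) and S1pr2 (2.42) came next, again with overlapping intervals, and Lpar3 (0.755) and S1pr3 (0.139) were last. In the Untreated library S1pr4 (120.8 CPM per kilobase) stood above S1pr1 (97.7), with S1pr5 (45.9), Lpar6 (11.3), Gpr183 (7.16), S1pr2 (2.43), S1pr3 (0.215) and Lpar3 (0.0156) after them and no 2 neighbouring intervals overlapping. S1pr5, Lpar6, Gpr183 and S1pr2 held the same places in both libraries, and Lpar3 and S1pr3 held opposite ones.

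**Figure D3:**
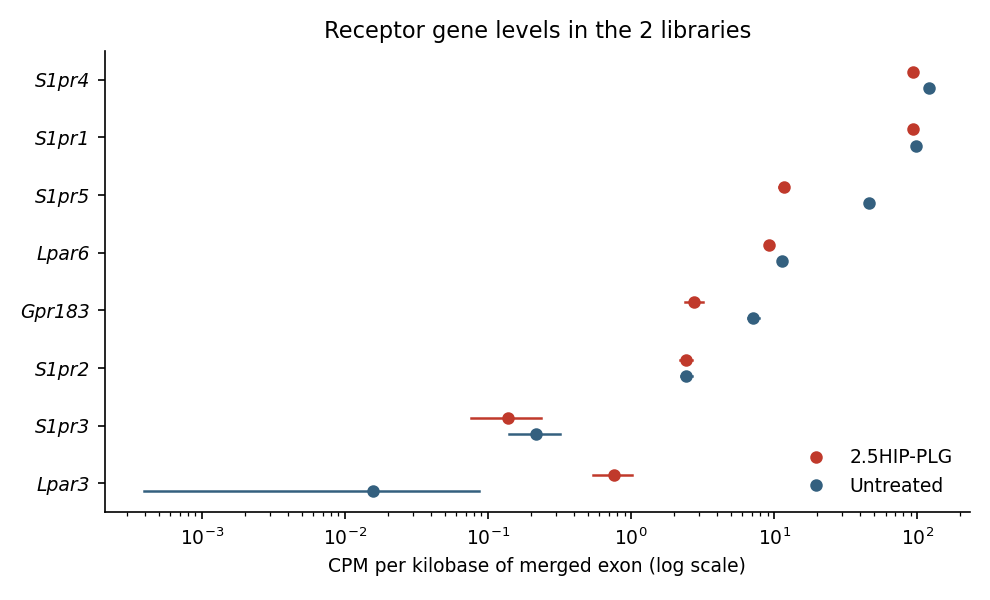
Level of each receptor gene in CPM per kilobase of merged exon on a log axis, with the 2.5HIP-PLG library in red above the Untreated library in blue and exact 95% Poisson intervals as bars. S1pr5 is at 11.6 after 2.5HIP-PLG and 45.9 in Untreated, whereas the S1pr2 points lie at 2.42 and 2.43.

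**Figure D4:**
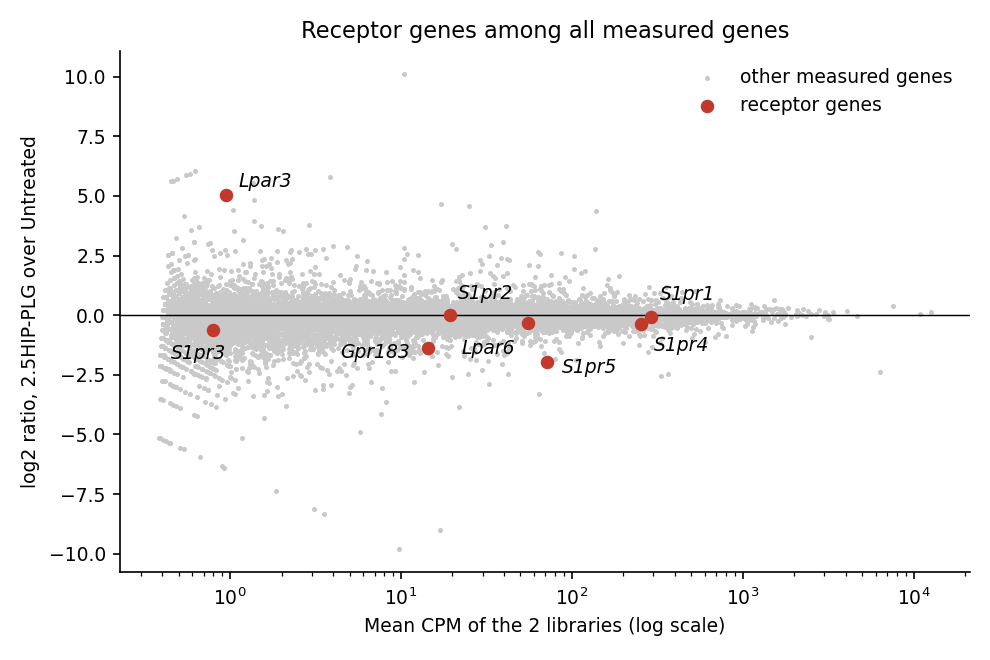
The log2 ratio of 2.5HIP-PLG over Untreated against mean CPM on a log axis, with grey points for the measured genes and red points for the 8 receptor genes. S1pr5 at -1.98 and Gpr183 at -1.37 lie below the bulk of genes of like level, and Lpar3 at 5.03 lies among genes with few counts.

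Genes that make, move or break down the ligands, or carry the signal of these receptors, were taken from 9 lists. Of these, 65 genes were in the table and 50 were measured, of which 4 were higher, 4 lower and 42 neither. The shares were 8% higher and 8% lower, against 5.15% and 9.7% over all measured genes, so both are near the background. The median log2 ratio was 0.08, beside -0.01 over all measured genes. Of 12 measured genes of S1P metabolism and transport, 2 were higher and 0 lower, with a median of 0.18. Sgpp2, which encodes an S1P phosphatase, had 42 counts after 2.5HIP-PLG and 7 in Untreated (6.92, 3.08 to 18.3). Plpp2, encoding a lipid phosphatase that acts on LPA and S1P, had 164 counts after 2.5HIP-PLG and 69 in Untreated (2.74, 2.06 to 3.69). The more abundant phosphatase gene Sgpp1 (1432 counts after 2.5HIP-PLG and 1754 in Untreated) and the S1P lyase gene Sgpl1 (1379 and 1461) were neither.

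Ligand enzymes of the other receptors were scarce in these T cells. Of 4 LPA-producing enzyme genes, 1 was measured, the autotaxin gene Enpp2, with 18 counts after 2.5HIP-PLG and 34 in Untreated (0.610, 0.325 to 1.11), and Pla1a had 3 and 0. Of 4 genes for making or breaking down the oxysterol ligand of GPR183 and its relatives, Hsd3b7, which encodes the enzyme that degrades that ligand, was the 1 measured. It had 77 counts after 2.5HIP-PLG and 29 in Untreated (3.06, 1.97 to 4.87), from expected counts that were not whole. Of the others, Cyp27a1 had 1 and 7 counts, Ch25h had 2 and 1, and Cyp7b1 had 0 in both libraries.

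Among receptors for related lipids, 1 was called. Lpar5 (632 counts after 2.5HIP-PLG and 602 in Untreated; 1.21, 1.08 to 1.36) and Lpar2 (258 and 222; 1.34, 1.12 to 1.61) were the 2 measured genes of the other 4 LPA receptors, and neither was called. Of 7 measured genes for other lysophospholipid and proton-sensing receptors, 0 were higher and 1 was lower, and the median log2 ratio was -0.14. Over all measured genes 5.15% were higher and 9.7% lower. The lower gene was Gpr34, a receptor for lysophosphatidylserine, with 36 counts after 2.5HIP-PLG and 160 in Untreated (0.259, 0.175 to 0.374). Gpr132 had 2530 counts after 2.5HIP-PLG and 4006 in Untreated (0.728, 0.693 to 0.766). P2ry10, a lysophosphatidylserine receptor gene whose expected counts were not whole, had 1994 and 2527 (0.910, 0.858 to 0.965).

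Control of S1pr1 itself showed differences below the limit. Of the 5 genes, all measured, 0 were called, with a median log2 ratio of -0.03. Klf2 had 11369 counts after 2.5HIP-PLG and 15479 in Untreated (0.847, 0.827 to 0.868), and Stat3, encoding a signal transducer that can raise S1pr1, had 7772 and 7403 (1.21, 1.17 to 1.25). Cd69 had 2647 counts after 2.5HIP-PLG and 4029 in Untreated (0.758, 0.721 to 0.796), and Foxo1, a regulator of Klf2, had 4297 and 5069 (0.977, 0.938 to 1.02). Receptor desensitisation genes had 0 of 7 higher and 1 lower (median 0.04), beside 5.15% higher and 9.7% lower over all measured genes. The lower gene was the receptor kinase gene Grk3 (49 counts after 2.5HIP-PLG and 95 in Untreated; 0.595, 0.412 to 0.848). Its abundant relatives Grk2, whose product desensitises S1PR1 (17314 and 17721; 1.13, 1.10 to 1.15), and Grk6 (9275 and 9841; 1.09, 1.06 to 1.12) were neither.

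Of 10 measured genes for G protein subunits and guanine nucleotide exchange factors, 0 were higher and 2 lower, beside 5.15% higher and 9.7% lower over all measured genes. The median log2 ratio was -0.01 for the 10 genes and for all measured genes. Besides Gna15, described above, Arhgef11, encoding an exchange factor downstream of the Gna12 and Gna13 products, was lower, with 204 counts after 2.5HIP-PLG and 374 in Untreated (0.629, 0.528 to 0.748). Gnai2, the main inhibitory G protein of lymphocyte migration, had 27532 counts after 2.5HIP-PLG and 29630 in Untreated (1.07, 1.05 to 1.09). Arhgef1, which encodes an exchange factor downstream of S1PR2, had 30400 and 38113 (0.920, 0.906 to 0.934).

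Of 5 genes for entry into and retention in lymphoid tissue, 1 was higher and 0 lower. Over all measured genes 5.15% were higher and 9.7% lower. The median log2 ratio was 0.21 for the 5 genes and -0.01 for all measured genes. The follicle-homing receptor gene Cxcr5 was the higher one, with 1296 counts after 2.5HIP-PLG and 671 in Untreated (2.23, 2.03 to 2.45). Ccr7, which holds T cells in the T zone against the S1P gradient, had 1958 counts after 2.5HIP-PLG and 1947 in Untreated (1.16, 1.09 to 1.24), and the most abundant members Itgal (37896 and 41898) and Itga4 (35442 and 33829) were neither.

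**Figure D5:**
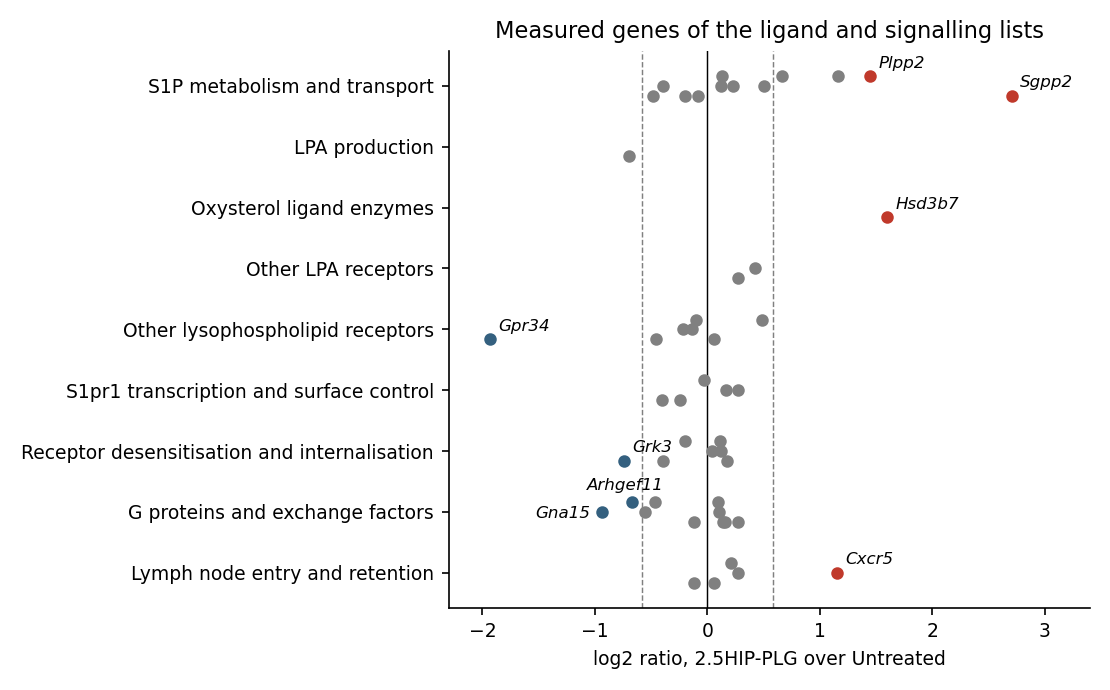
The log2 ratio of 2.5HIP-PLG over Untreated for the 50 measured genes of 9 ligand, receptor and signalling lists, 1 row per list and 1 point per gene. Dashed lines mark a 1.5-fold difference. Red points are called higher (4 genes), blue points lower (4 genes) and grey points neither, and called genes are named.

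Other cell types were checked by their markers. The 10 CD4 T cell markers were all measured and none was called, with a summed level of 7676 CPM after 2.5HIP-PLG and 6197 CPM in Untreated, led by Cd4 and Lck (26506 and 29851 counts). Of 2 CD8 genes, Cd8b1 had 304 counts after 2.5HIP-PLG and 272 in Untreated. Macrophage markers summed to 22.2 CPM after 2.5HIP-PLG and 21.05 CPM in Untreated (8 listed, 5 measured, 2 higher, 0 lower). Itgam (219 and 325 counts) and Cd68 (107 and 96) led them. The 2 higher genes were Lyz2 (101 and 47) and Csf1r (50 and 27), while Adgre1 (19 and 33) was neither. Neutrophil markers summed to 14.2 CPM after 2.5HIP-PLG and 4.03 CPM in Untreated (8 listed, 4 measured, 2 higher), led by Mpo (237 and 57) and Elane (31 and 9). Much of that sum was Mpo, with 10.5 CPM after 2.5HIP-PLG and 2.19 CPM in Untreated. Ngp (16 and 8 counts), Ly6g (14 and 11), S100a9 (10 and 9) and S100a8 (10 and 8) had few counts. Retnlg (2 and 0) and Camp (1 and 3) were near 0, and none of these 6 was called. Mast cell and basophil markers summed to 29.9 CPM after 2.5HIP-PLG and 21.9 CPM in Untreated (6 listed, 5 measured, 3 higher), led by Kit (292 and 471) and Prss34 (199 and 54). Kit differed in the other direction from the rest of that list and was neither. The 3 higher genes were Prss34, Mcpt8 (116 and 22) and Cpa3 (44 and 14). Ms4a2 (14 and 8) was neither, and Fcer1a (10 and 0) was under the count minimum. Stromal markers summed to 3.45 CPM after 2.5HIP-PLG and 2.27 CPM in Untreated (8 listed, 2 measured, 1 higher), led by Pdgfrb (34 and 39) and Col1a1 (39 and 14), with Col3a1, Pdgfra, Pdpn and Ccl19 at 0 in both libraries. Erythroid markers summed to 46.5 CPM after 2.5HIP-PLG and 48.1 CPM in Untreated (6 measured, 0 called), led by Hba-a1 (557 and 579) and Hbb-bs (355 and 513).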

How the data were processed

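RNA was sequenced from 2 libraries, 1 per group. Per the labels' protocols, RNA was purified on RNeasy Plus Mini columns and libraries were built with a NuGen Universal Plus kit for mRNA. The submitters' processing notes name STAR, RSEM 1.3.1 and GRCm38. The annotation, the filters and the strand option are all not stated there or in the labels. The table deposited by the authors holds expected counts, which can be fractional and are unscaled. For this report they were rounded, scaled by library total and compared as ratios with exact conditional binomial intervals (Python 3.11.15, scipy 1.17.1, pandas 2.3.3, numpy 2.4.6). Merged exon lengths and coordinates came from GENCODE M21. Differences between animals or preparations are not covered by the intervals, and the labels describe no molecular identifiers, so copies made by PCR count as reads.

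The 8 genes, the 9 pathway lists, the 11 marker lists and the rules were chosen with earlier results of these data known. Some single genes of the lists are left out and not reported here. Named were all 8 genes, up to 4 called genes and the 2 with most counts per pathway list, the 2 with most counts per marker list, the 3 genes nearest S1pr1, and Cd4, Cd3e, Cd8a and Foxp3. Genes given as overlapping, neighbouring or defining, and the marker sum without Eomes, were added after their values were seen. So were Klrb1c, Klra8, Ncr1, Itgax, Clec9a, Emcn, Lyve1, Cd69, Foxo1, Ccr7, Ch25h and Cyp7b1. Col3a1, Pdgfra, Pdpn, Ccl19, Blk, Cd79b, Pax5, Lyz2, Csf1r and Adgre1 were added in the same way. The same holds for Ngp, Ly6g, S100a9, S100a8, Retnlg, Camp, Mcpt8, Cpa3, Ms4a2, Fcer1a, Tyrobp and Cd244a. Alternatives were TMM and upper-quartile factors (edgeR 4.0.16), TMM without the 20 most abundant genes, DESeq2 1.42.0 size factors, another count minimum (10, 100 or none), a 2-fold limit, a 99% interval, unrounded counts and summed rows. The calculation was tested on simulated counts that held counting error alone. That test does not cover differences between animals or preparations, or copies made by PCR. Figures were drawn with matplotlib 3.10.9.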

Additional observations from a re-analysis of the deposited data

How the results depend on the processing

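Under the 4 other scalings the S1pr5 ratio lay between 0.250 and 0.255, that of Gpr183 between 0.382 and 0.389 and that of Lpar3 between 47.9 and 48.9, and each scaling called 1 receptor gene higher and 2 lower. With a count sum of at least 100, Lpar3 was no longer measured, so 0 receptor genes were called higher, and over all genes 473 were higher and 748 lower, against 716 and 1348 as reported. With a ratio of at least 2, 1 pathway gene was lower instead of 4, and 387 genes were higher and 808 lower. When the background was limited to protein-coding genes of 500 or more summed counts, an alternative chosen after seeing the data, 243 were higher (2.92%) and 300 lower (3.6%). Relative to S1pr1 in the same library, also chosen after seeing the data, the S1pr4 ratio was 0.804 instead of 0.768. No paired analysis was possible because each group has 1 library, and for the same reason no library could be left out. Depth limits S1pr3 and Lpar3 most.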

Other observations

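S1pr5 is known from terminal effector T cells and natural killer cells. For that reason 7 genes linked to effector T cells or natural killer cells were looked up after their values had been seen. These 7 genes, Zfp683 among them, are not all particular to those states. After 2.5HIP-PLG, 3 of them were lower and 0 higher, where 9.7% of all measured genes were lower and 5.15% higher. Their median log2 ratio was -0.57, against -0.01 over all measured genes, and since they were chosen with these values known, the counts are a description only. Zeb2, which encodes a repressor needed for terminal effector differentiation, had 975 counts after 2.5HIP-PLG and 2257 in Untreated (0.498, 0.462 to 0.537). Klrg1 had 539 and 1619 counts (0.384, 0.348 to 0.423), and Zfp683, encoding the factor Hobit, had 842 and 1683 (0.577, 0.530 to 0.627). Cx3cr1, a chemokine receptor of circulating effector cells, had 2790 counts after 2.5HIP-PLG and 4647 in Untreated (0.692, 0.660 to 0.726), and Runx3 had 4227 and 7225 (0.675, 0.649 to 0.701), both short of the limit for a call. Tbx21, encoding T-bet, which activates S1pr5 in natural killer cells, had 6889 and 7893 counts (1.01, 0.974 to 1.04), and Prdm1 had 920 and 902 (1.18, 1.07 to 1.29).

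Follicular helper cells are known for low Gpr183 and, in germinal centres, for S1pr2. Of 6 genes used by such cells, also chosen after their values were seen, 4 were higher and 0 lower after 2.5HIP-PLG. Over all measured genes 5.15% were higher and 9.7% lower, and this too is a description only. The 6 genes are not particular to follicular helper cells, and the recipient strain has no B cells of its own. Whether follicular helper cells were present was not tested. Bcl6, which encodes the factor that represses Gpr183 in that lineage, had 766 counts after 2.5HIP-PLG and 608 in Untreated (1.45, 1.304 to 1.62), short of the limit, and Icos had 5453 and 4256 (1.48, 1.42 to 1.54). Sh2d1a had 1584 counts after 2.5HIP-PLG and 1202 in Untreated (1.52, 1.41 to 1.64), and the other higher genes were Il21 (1726 and 147), Pdcd1 (3928 and 812) and Cxcr5. S1pr2 was level in the same libraries, with 436 counts after 2.5HIP-PLG and 504 in Untreated.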
